A study of Homo sapiens with 21 samples.

Results

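The enzymes that make fatty acids from citrate and then desaturate and lengthen them were followed across A549 xenografts as a set of 10 genes, ACLY, ACACA, ACACB, FASN, SCD, ELOVL1, ELOVL5, ELOVL6, FADS1 and FADS2. The genes were picked by symbol for what their enzymes do, with earlier results of these data known. Each was found once among the 60651 human genes in the table of raw counts. All 10 had enough reads to be tested in every comparison.

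RNA was sequenced from 21 subcutaneous tumors of A549-Luc2, a luciferase-tagged form of the human lung adenocarcinoma line A549, 7 each from the control, Oxy186 and Oxy210 groups. The cells were injected with Matrigel into female athymic nu/nu mice 6 to 8 weeks old, which lack a thymus and so mature T cells, and 10 mice were randomized to each group when tumors averaged 80 to 100 mm3. Oxy186 and Oxy210, 2 semisynthetic oxysterols, were given by daily oral gavage at 50 mg/kg, and control mice received the same carrier of DMSO, ethanol, PEG400 and corn oil. All groups thus share a single cell line, host strain, sex and carrier, and untreated tumors without carrier were not analysed here.

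Fatty acid synthesis starts in the cytosol. ATP citrate lyase (ACLY) splits citrate into acetyl-CoA, acetyl-CoA carboxylases (ACACA and ACACB) turn this into malonyl-CoA, and fatty acid synthase (FASN) joins the pieces into palmitate. Stearoyl-CoA desaturase (SCD) puts the first double bond into saturated chains, ELOVL enzymes lengthen chains in the endoplasmic reticulum, and FADS1 and FADS2 add double bonds to polyunsaturated chains. Transcription of most of these genes is known to be driven by the SREBP factors, which sterols restrain through INSIG proteins, and by the oxysterol receptor LXR, and many lung adenocarcinomas depend on this pathway.

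Human genes held between 13818998 and 17865119 counts in a control tumor, 14008787 to 15776682 in an Oxy186-treated and 13787493 to 15758662 in an Oxy210-treated sample. Each tumor was taken as 1 replicate, and whether each came from its own mouse is not stated in the labels. The summed level of 7 markers of A549 cells and simple lung epithelium lay between 13910 and 23070 CPM (counts scaled to library size) in every tumor, and none of the 7 passed the test in any comparison. The alveolar type II markers SFTPA1, SFTPB, SFTPC and NKX2-1 were at 0 in 13 to 17 of the 21 tumors and summed to at most 0.58 CPM. Of 6 fat cell markers, ADIPOQ was at 0 in all 21 tumors, LEP in 20 and FABP4 in 12, while CFD (mean 58.1 CPM), CIDEC (10.0 CPM) and PLIN1 (0.85 CPM) had reads in every tumor. Their sum was 39.4 to 122.5 CPM in control, 30.8 to 102.7 CPM in Oxy186-treated and 47.1 to 83.2 CPM in Oxy210-treated samples, none of the 3 with enough reads passed the test, and their part in the levels of the enzymes was not tested. These are bulk tumors in which reads assigned to mouse were set aside, and levels were scaled to the human counts of each library. The number of cancer cells and the total RNA per cell were thus not measured.

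Libraries differed in how read counts followed the GC content of genes. The slope of a library, the change in log2 CPM per 10 percentage points of exon GC, lay between -0.15 and 0.40 in control tumors and between -0.33 and 0.26 in Oxy210-treated samples. In Oxy186-treated samples it was -0.51 to -0.18 in r1-r4 and 0.079 to 0.49 in r5-r7, so that r1-r4 all lay below the lowest control tumor. The study set r1-r4 apart from r5-r7 on a principal component plot of these same libraries. The enzyme genes span exon GC contents from 42.0% in ELOVL6 to 65.2% in FASN. Values below keep the trend unless its removal is stated, and for some genes both are given.

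The stretch before the start of ACLY, SCD, ELOVL5 and FADS1 is printed to show what the regulatory DNA of these genes holds, since SCD and ACLY had the highest levels per length, ELOVL5 carried an E-box and FADS1 rose and fell with several other members. RefSeq windows of 250 bases before to 50 after the start (GRCh38.p14) matched 9 of the 10 genes, some with several starts, and FASN was not among them. Each line gives the 250 bases before the start, 5′ to 3′ on the strand of the gene, with CCAAT boxes (CCAAT, or ATTGG for the opposite strand) and the E-box CACGTG in capitals.
ACLY, chr17:41919023-41919272, minus strand: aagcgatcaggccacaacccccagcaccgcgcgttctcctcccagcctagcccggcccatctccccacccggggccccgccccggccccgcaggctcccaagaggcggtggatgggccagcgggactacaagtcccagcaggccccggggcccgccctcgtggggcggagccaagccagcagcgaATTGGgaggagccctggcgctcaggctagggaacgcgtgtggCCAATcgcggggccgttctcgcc
SCD, chr10:100346983-100347232, plus strand: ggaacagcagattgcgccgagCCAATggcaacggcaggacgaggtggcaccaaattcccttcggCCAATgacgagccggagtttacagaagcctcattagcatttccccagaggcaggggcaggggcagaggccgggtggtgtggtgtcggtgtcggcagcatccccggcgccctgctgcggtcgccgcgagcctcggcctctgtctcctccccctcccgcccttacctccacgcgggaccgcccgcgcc
ELOVL5, chr6:53348951-53349200, minus strand: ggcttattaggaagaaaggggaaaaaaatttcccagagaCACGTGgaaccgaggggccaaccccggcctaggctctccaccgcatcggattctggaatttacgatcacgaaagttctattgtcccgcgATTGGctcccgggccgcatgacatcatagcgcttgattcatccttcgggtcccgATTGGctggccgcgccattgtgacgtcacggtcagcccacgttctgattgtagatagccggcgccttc
FADS1, chr11:61817004-61817253, minus strand: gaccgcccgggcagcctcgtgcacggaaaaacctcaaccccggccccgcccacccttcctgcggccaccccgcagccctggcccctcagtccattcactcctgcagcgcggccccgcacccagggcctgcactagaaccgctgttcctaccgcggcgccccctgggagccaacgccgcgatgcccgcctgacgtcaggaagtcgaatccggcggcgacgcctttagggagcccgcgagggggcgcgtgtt

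On both strands, CCAAT was in 9 of the 14 windows of these genes and in 34.6% of all 35116 promoter windows of the genome. Counted by gene, where any window suffices, it was in 7 of the 9, a count not comparable with that share. ACLY, SCD and ELOVL5 held 2 each, as did a window of ACACA and a window of ACACB, and FADS1 and ELOVL6 held none. The GC box GGGCGG, not marked in the lines above, was in 10 of the 14 windows and in 45% of all windows. CACGTG was found in 1 of the 14 windows, that of ELOVL5, and in 7.26% of all windows. The core of a sterol regulatory element, TCACNCCAC, which SREBP binds, was in 1.13% of all windows and in none of the 14 windows of these genes, which says only that these letters do not stand there.

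Per length, ACLY and SCD stood highest and ELOVL6 and ACACB lowest. The level per length (RPKM, reads scaled to library size and to the length of the longest transcript) in the 7 control tumors averaged 94.9 ± 20.6 (SD) for ACLY, at chr17:41866917-41930542, and 75.6 ± 12.8 for SCD, at chr10:100347233-100364826. ACLY was above SCD in 7 of 7 tumors, although their ranges overlapped. Next came FADS1 at 50.3, FADS2 at 47.8, ELOVL1 at 43.1, ELOVL5 at 36.7 and FASN at 26.0 RPKM, neighbors whose ranges overlapped each time. ACACA, at 11.6 RPKM, lay wholly below FASN, and ACACB, the carboxylase form tied to control of fatty acid oxidation at mitochondria, lay at 3.87 RPKM wholly below ACACA. ELOVL6 averaged 3.24 RPKM and was below ACACB in 5 of 7 tumors. The order rests on the length used. When all annotated exons were counted, FADS1 and FADS2 fell to 21.5 and 23.0 RPKM, under ELOVL5 at 29.6, ELOVL1 at 27.9 and FASN at 23.6. ELOVL6 then averaged 2.93, above ACACB at 2.50, and ACLY and SCD stood closer, at 78.7 and 75.6.

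**Figure D1:**
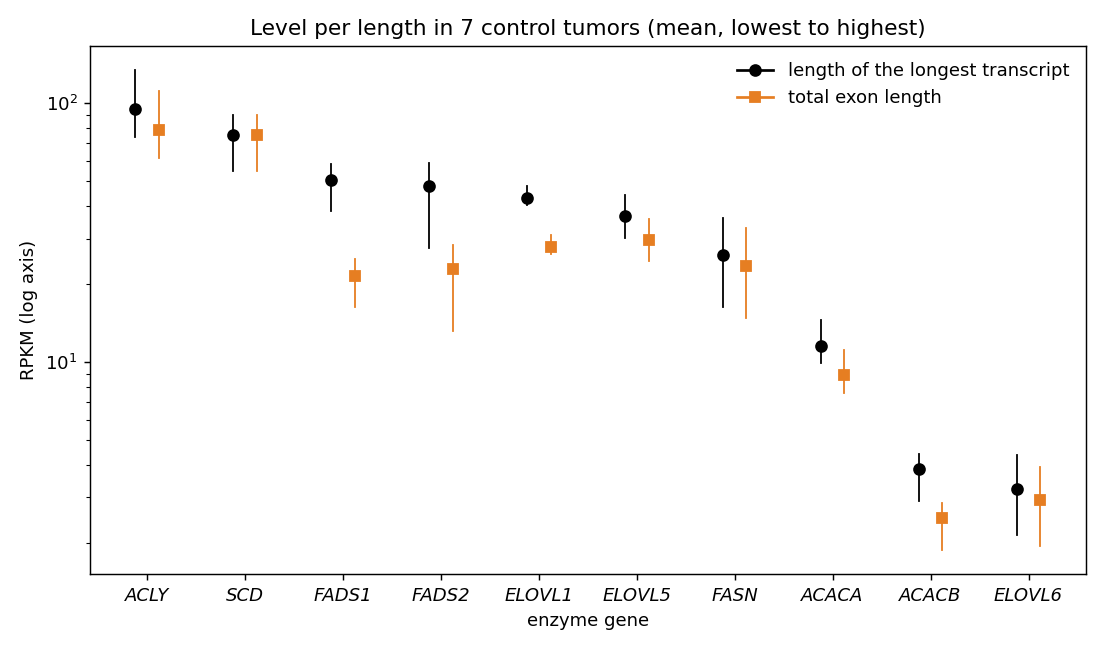
Level per length (RPKM, log axis) of each enzyme gene in the 7 control tumors; points are means and lines run from the lowest to the highest tumor, with the longest transcript in black and total exon length in orange. ACLY and SCD lie at the top with either length, and FADS1 and FADS2 drop from about the middle of the order when all exons are counted.

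As shares of the summed RPKM of the 10 genes, ACLY took 24.0% ± 3.11 (SD, n = 7) in control, 25.4% ± 4.74 in Oxy186-treated and 27.0% ± 2.95 in Oxy210-treated samples. FASN took 6.63% ± 1.86, 5.06% ± 2.83 and 5.53% ± 1.20, and its range over the 7 Oxy186-treated samples, 2.21% to 10.3%, took in the whole control range of 4.64% to 9.75%. ACACA took 2.94% ± 0.25, 3.35% ± 0.31 and 3.42% ± 0.21. All groups overlapped in these shares, and no test was run on them.

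Among the members, FASN, FADS2 and ELOVL6 differed most between control tumors. Their SD over the 7 control tumors on the log2 CPM scale was 0.43, 0.42 and 0.36, at the 89.8, 88.5 and 80.6 percentiles of the 8767 genes whose mean log2 CPM was 4 or more. Control r2 was the lowest control tumor in each of them, at 7.07, 7.09 and 3.80 log2 CPM. In FADS2 the other control tumors lay between 7.845 and 8.408, and the SDs were not computed without r2. ELOVL1, ELOVL5, ACACB and ACACA varied least, with SDs of 0.17 to 0.18 at the 20.3 to 24.9 percentiles.

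The question put to each member was whether its level differed between treated and control tumors, or between the compounds. In the quasi-likelihood test of edgeR, with p-values adjusted over all genes tested (Benjamini-Hochberg), 0 of the 10 members passed an adjusted p of 0.05 in Oxy186-treated against control samples, where 0% of 16291 genes passed. It was also 0 of 10 in Oxy210-treated against control samples (0% of 16396) and 0 of 10 in Oxy186-treated against Oxy210-treated samples (0% of 16361). At an unadjusted p under 0.05 the members counted 0, 1 and 0, and all genes 618, 2270 and 664, which is 3.79%, 13.8% and 4.06%. DESeq2 called 0, 92 and 7 genes in these comparisons, which is 0%, 0.561% and 0.0428%, and 0 members in each. The groups compared overlapped in log2 CPM in all 10 members in each of the 3 comparisons, while 0.0123%, 0.165% and 0.0672% of all genes had groups that did not overlap. The median log2 fold change of the 10 members was 0.094 in Oxy186-treated samples, with 7 above 0, and -0.017 in Oxy210-treated samples, with 5 above 0, against -0.0067 and 0.0086 over all genes tested. Of all genes tested, 48.9% and 51.3% were above 0 in these 2 comparisons. The same control tumors stand in both, and several members varied together across the tumors.

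**Figure D2:**
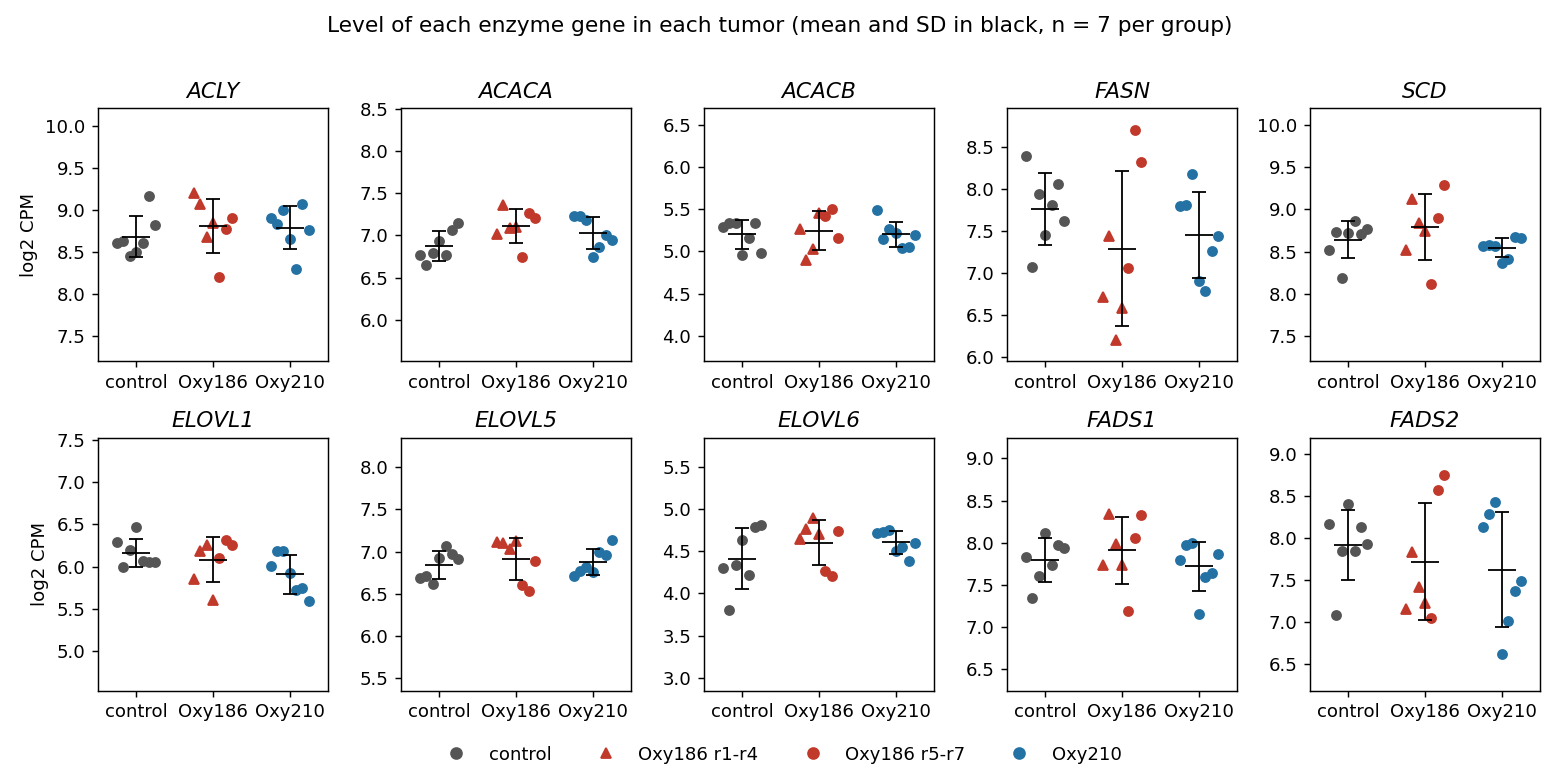
Level (log2 CPM) of each enzyme gene in each of the 21 tumors, with the mean and SD of each group in black; triangles are Oxy186-treated samples r1-r4 and every panel spans 3 log2 units. The groups overlap in all 10 genes, and FASN and FADS2 have the widest spread.

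ACLY, the supplier of acetyl-CoA, had log2 CPM of 8.45, 8.61 and 9.16 (lowest, median and highest) in control tumors. Its values were 8.20, 8.85 and 9.21 in Oxy186-treated and 8.30, 8.83 and 9.07 in Oxy210-treated samples. In each treated group 6 of 7 tumors were above the control median and only 1 treated tumor, Oxy186-treated sample r1, was above the highest control. The fold changes were 1.09 (95% interval 0.86 to 1.37, adjusted p = 0.887) and 1.09 (0.90 to 1.31, adjusted p = 0.652).

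ACACA, the main cytosolic carboxylase and the step that commits carbon to fatty acids, lies at chr17:37084992-37406836. It had 6.65, 6.79 and 7.15 in control, 6.74, 7.10 and 7.36 in Oxy186-treated and 6.75, 7.01 and 7.23 in Oxy210-treated samples. Again 6 of 7 tumors of each treated group were above the control median, 3 of 7 in each were above the highest control, and none was below the lowest. The fold change was 1.17 with Oxy186 (0.98 to 1.39, adjusted p = 0.862) and 1.13 with Oxy210 (0.97 to 1.31, adjusted p = 0.441). ACACB, at chr12:109116587-109268226, had medians of 5.29, 5.27 and 5.19 in control, Oxy186-treated and Oxy210-treated samples, and fold changes of 1.02 (0.85 to 1.22) and 1.01 (0.88 to 1.17).

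FASN, at chr17:82078338-82098294 and the most GC-rich member, had the widest range. Its log2 CPM was 7.07, 7.81 and 8.40 in control, 6.21, 7.06 and 8.70 in Oxy186-treated and 6.79, 7.44 and 8.17 in Oxy210-treated samples. Of the Oxy186-treated samples, r1, r3, r4 and r5 were below the lowest control tumor and r6 was above the highest, so this group spread over both ends of the control range. The fold change was 0.83 in both, with 95% intervals of 0.51 to 1.36 for Oxy186 (adjusted p = 0.884) and 0.62 to 1.11 for Oxy210 (adjusted p = 0.526). These fold changes compare fitted group counts, in which high tumors weigh more than they do in a mean of log2 values. The size for Oxy186 depends on the fit. Limma voom gave 0.71 for Oxy186 (adjusted p = 0.706) and 0.82 for Oxy210, as did edgeR with the replicate block (adjusted p = 0.978 for Oxy186). With GC offsets, which remove the GC trend of each library, the edgeR fold change turned to 1.10 (0.83 to 1.44) for Oxy186 and came to 0.99 (0.80 to 1.23) for Oxy210.

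SCD, the desaturase that makes oleate from stearate, had 8.19, 8.72 and 8.86 in control, 8.11, 8.84 and 9.29 in Oxy186-treated and 8.37, 8.57 and 8.68 in Oxy210-treated samples. All 7 Oxy210-treated samples were below the control median and none left the control range, while 3 Oxy186-treated samples were above the highest control tumor and 1, r5, was below the lowest. The fold changes were 1.12 (0.88 to 1.42, adjusted p = 0.868) and 0.94 (0.81 to 1.10, adjusted p = 0.708).

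Among the elongases, ELOVL1, at chr1:43363398-43368074, lengthens saturated very long chains. Its log2 CPM was 6.00, 6.06 and 6.47 in control, 5.61, 6.19 and 6.32 in Oxy186-treated and 5.59, 5.92 and 6.18 in Oxy210-treated samples, and 4 of the 7 Oxy210-treated samples were below the lowest control. It was the member with an unadjusted p under 0.05 (0.047 in edgeR) in Oxy210-treated samples, with a fold change of 0.85 (0.73 to 1.00) and an adjusted p of 0.351, and with GC offsets its fold change was 0.96 (0.84 to 1.09). In Oxy186-treated samples its fold change was 0.94 (0.79 to 1.13), which turned to 1.18 (0.95 to 1.45) with GC offsets.

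ELOVL5, at chr6:53267398-53349179, acts on polyunsaturated chains. It had medians of 6.91, 7.03 and 6.82 in control, Oxy186-treated and Oxy210-treated samples and fold changes of 1.05 (0.87 to 1.26) and 1.04 (0.90 to 1.22), which turned to 0.99 and 0.98 with GC offsets. ELOVL6, at chr4:110045846-110199199, lengthens the palmitate that FASN releases, and had 3.80, 4.34 and 4.81 in control, 4.20, 4.71 and 4.89 in Oxy186-treated and 4.38, 4.60 and 4.75 in Oxy210-treated samples. All 7 Oxy210-treated samples were above the control median yet within the control range, and the fold change was 1.13 (0.93 to 1.39, adjusted p = 0.537), beside 1.11 (0.87 to 1.42, adjusted p = 0.869) for Oxy186.

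FADS1 and FADS2, the desaturases of polyunsaturated chains, are annotated on opposite strands of chromosome 11, at chr11:61799627-61829318 and chr11:61792980-61867354. The start of FADS1 lies 599 bases inside FADS2 as counted from the second RefSeq start of FADS2, and 4.79% of exon bases of FADS1 and 4.64% of those of FADS2 are shared with genes on the other strand. Whether reads were counted by strand is not stated, so the counts on such bases are uncertain for both genes. FADS1 had 7.35, 7.83 and 8.12 in control, 7.18, 7.99 and 8.34 in Oxy186-treated and 7.15, 7.79 and 8.00 in Oxy210-treated samples. FADS2 had 7.09, 7.93 and 8.41, then 7.05, 7.41 and 8.75, then 6.63, 7.49 and 8.43. FADS2 spread more widely in both treated groups, on both sides of the control median. The fold changes were 1.09 (0.85 to 1.40) and 0.96 (0.80 to 1.17) for FADS1 and 0.93 (0.63 to 1.38) and 0.87 (0.62 to 1.23) for FADS2, and that of FADS2 with Oxy186 turned to 1.04 (0.77 to 1.41) with GC offsets.

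**Figure D3:**
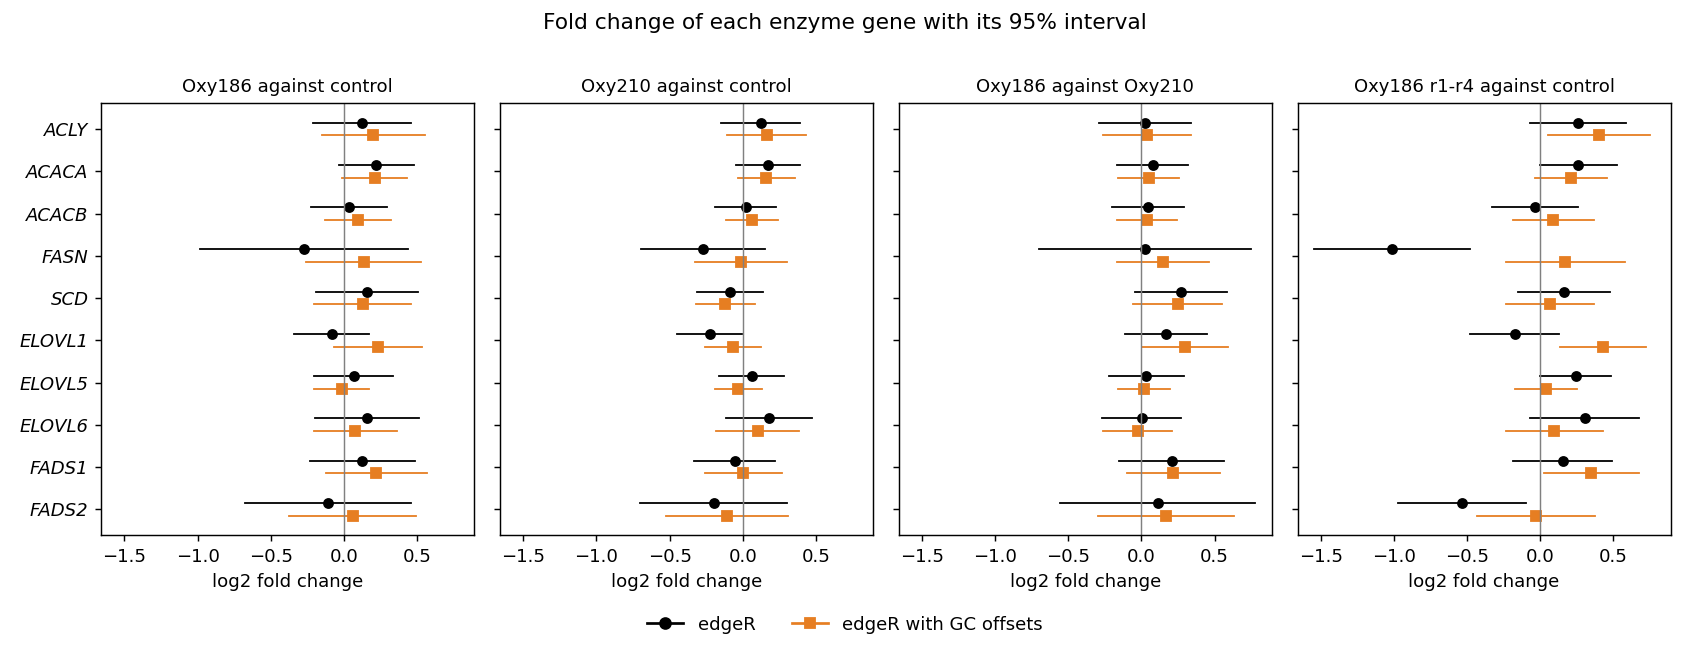
Log2 fold change of each enzyme gene with its 95% interval in 4 comparisons, from edgeR (black circles) and from edgeR with GC offsets (orange squares); the last panel uses samples that the study chose from these libraries. Intervals cross 0 for nearly all genes, and the FASN point moves from -1.01 to 0.17 in the last panel.

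Oxy186 and Oxy210 were compared directly at the same dose of 50 mg/kg and the same schedule, as 1 pair of compounds. All 10 members had a fitted fold change above 1 in Oxy186-treated against Oxy210-treated samples, where 48.5% of all genes tested did. They ran from 1.00 for ELOVL6 to 1.21 for SCD, with a median log2 difference of 0.059 against -0.0068 over all genes tested. None differed beyond the spread between tumors. For SCD, 5 of 7 Oxy186-treated samples were above the highest Oxy210-treated sample and 1 was below the lowest, and the 95% interval was 0.97 to 1.50 (edgeR adjusted p = 1.00). For ELOVL1 the fold change was 1.12 (0.93 to 1.36), or 1.23 (1.004 to 1.505, edgeR adjusted p = 0.607) with GC offsets, and for FADS1 1.15 (0.90 to 1.48). FASN, at 1.02, had the interval 0.61 to 1.68 and FADS2, at 1.08, the interval 0.68 to 1.71, so differences of over 1.5-fold in these genes are not excluded by their intervals. The intervals of ACLY, ACACA, ACACB, ELOVL5 and ELOVL6 lay between 0.82 and 1.26. Several members varied together across the tumors, as given below, so the 10 directions are not independent of each other. The count above 1 also depends on the scaling and on the fit. ACLY, FASN, ELOVL5 and ELOVL6 fell below 1 when library size alone was used, ELOVL6 did with GC offsets, and FASN and ELOVL6 did in limma voom (-0.17 and -0.015 on the log2 scale) and with the replicate block (-0.17 and -0.013). The mean log2 CPM of FASN was itself lower in Oxy186-treated than in Oxy210-treated samples, at 7.29 and 7.45.

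In Oxy186-treated samples r1-r4 against control, FASN was lower and no other member passed the test. FASN had log2 CPM of 6.72, 7.44, 6.21 and 6.58 in r1 to r4, all below the control median and 3 below the lowest control tumor. The fold change was 0.50 (0.34 to 0.72, edgeR adjusted p = 0.0117), the 1 member called of 10, where 19.7% of 16852 genes were called and 15% were called lower. FADS2 was next at 0.69 (0.51 to 0.94, adjusted p = 0.0784), with all 4 samples below the control median and none below the lowest control. Since r1-r4 were set apart by their expression in these libraries, these are descriptions of 4 libraries and not an independent test of the compound. All 10 members overlapped with control in r1-r4, where 11.7% of all genes did not.

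The FASN value of r1-r4 moved with the GC slope. With GC offsets its fold change was 1.13 (0.85 to 1.49, adjusted p = 0.693), 0 of the 10 members passed, and 4.05% of genes were called. With the GC trend removed FASN had log2 CPM of 7.48, 7.96, 7.42 and 7.77 in r1 to r4, inside the control range of 6.85 to 7.98. ELOVL1 turned from 0.89 (0.72 to 1.09) to 1.35 (1.10 to 1.65, adjusted p = 0.0951), and ACLY and FADS1 stood at 1.32 (1.04 to 1.68, adjusted p = 0.190) and 1.28 (1.02 to 1.60, adjusted p = 0.231). The FASN call was also lost with the replicate number as a block (log2 fold change -0.998, edgeR adjusted p = 0.0619) and without r4 (-0.89, adjusted p = 0.0519), and without r2 FADS2 passed as well (-0.70, adjusted p = 0.0396).

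Over all 21 tumors, the levels of 4 members followed the GC slope of the library. FASN rose with it (Pearson r = 0.88, Spearman rho = 0.85, each permutation p = 1e-05, the smallest that the permutations can give, adjusted over 10 genes 0.0001). FADS2 (r = 0.65, rho = 0.69, permutation p = 0.00145 and 0.00074, adjusted 0.00483 and 0.00247) and ELOVL1 (r = 0.60, rho = 0.59, permutation p = 0.00439 and 0.00522, adjusted 0.0110 and 0.0130) rose with it too. ELOVL5, whose exons hold 42.5% GC, fell with it (r = -0.75, rho = -0.72, permutation p = 0.00011 and 0.00031, adjusted 0.00055 and 0.00155). SCD (r = -0.059), ACACA (r = -0.064) and FADS1 (r = 0.12) had permutation p from 0.602 to 0.801. Without the 2 tumors with the most extreme slopes r was 0.82, 0.66, 0.73 and -0.72 for these 4 genes in the order given, and over the 17 tumors other than Oxy186-treated samples r1-r4 it was 0.80, 0.66, 0.79 and -0.65. In those 17 tumors ACACB rose with the slope too by Pearson r (r = 0.56, rho = 0.49, permutation p = 0.0181 and 0.0457, adjusted 0.0363 and 0.0914), although r was 0.36 without the 2 farthest tumors, and over all 21 it was 0.38 (adjusted p = 0.153). The slope comes from the levels and GC content of all genes of the same libraries, so GC-rich genes tend to rise with it and GC-poor genes to fall. The share of all genes that follow it was not computed, so these values do not set the 4 members apart from genes of like GC content. What sets the slope was not tested.

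**Figure D4:**
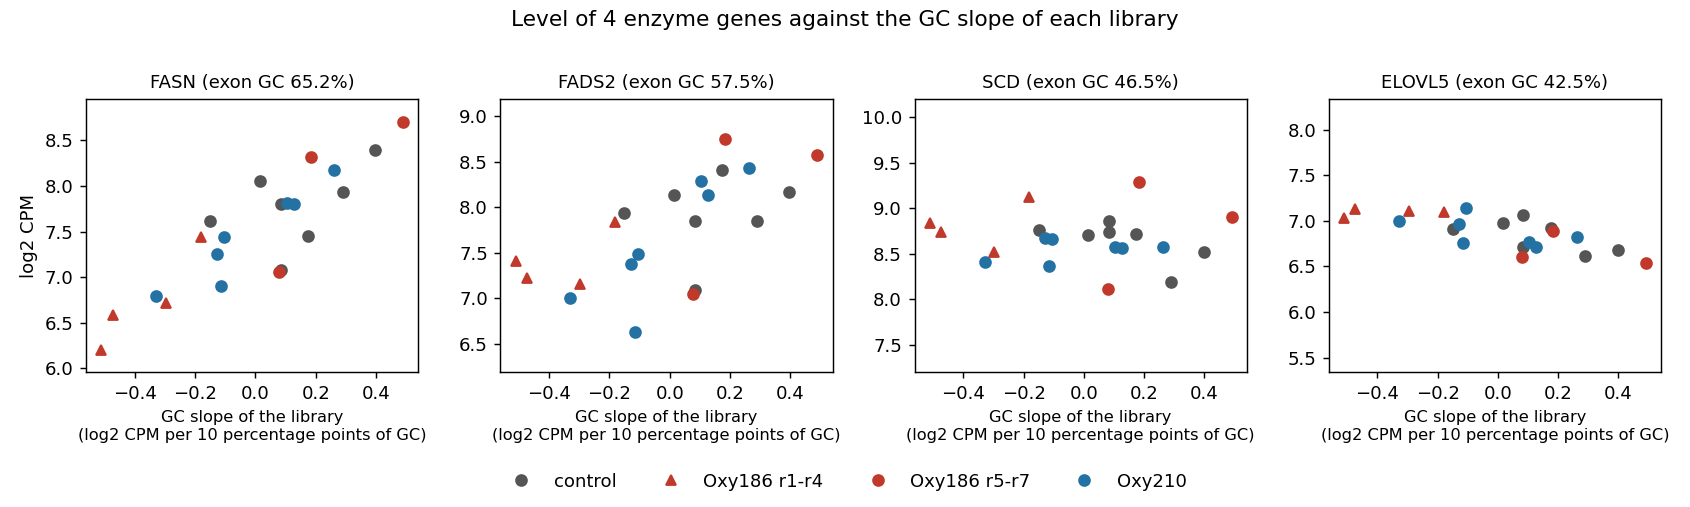
Level (log2 CPM) of FASN, FADS2, SCD and ELOVL5 in each tumor against the GC slope of its library (log2 CPM per 10 percentage points of exon GC); every panel spans 3 log2 units. Over all 21 tumors FASN climbs with the slope (r = 0.88), ELOVL5 falls (r = -0.75), and SCD has r = -0.059. No r was computed within a single group.

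The members were also compared with each other across the 21 tumors, as 45 pairs. Of these, 10 pairs were positively correlated at an adjusted p of 0.05 (permutation test, adjusted over the 45 pairs) and 0 negatively, with a median r of 0.26. For this and the later counts of pairs, the share among pairs of all genes was not computed. The counts thus do not set the members apart from other genes. FASN and FADS2 had the highest value (r = 0.83, rho = 0.86, each permutation p = 1e-05 and adjusted p = 0.00045, r = 0.86 without the 2 tumors farthest from the median of FASN). FADS1 was positively correlated with FADS2 (r = 0.78, rho = 0.80, permutation p = 5e-05 and 6e-05, adjusted 0.00075 and 0.00135), ACACA (r = 0.77, rho = 0.73, permutation p = 4e-05 and 0.00029, adjusted 0.00075 and 0.00435) and SCD (r = 0.75, rho = 0.67, permutation p = 0.00012 and 0.0011, adjusted 0.00135 and 0.00937). Without the 2 tumors farthest from the median of FADS1, ACACA and SCD in turn, r was 0.70, 0.69 and 0.61. Without Oxy186-treated samples r1-r4, the values of r of these 4 pairs were 0.88, 0.91, 0.74 and 0.71 over 17 tumors. With each group centered on its own mean they were 0.84, 0.82, 0.85 and 0.73.

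Oxy186-treated sample r5 and Oxy210-treated sample r4 were the lowest of their groups in FADS1 and FADS2. Sample r5 of the Oxy186 group was also the lowest of the 7 in ACLY, ACACA and SCD, at 8.20, 6.74 and 8.11. With the GC trend of each library removed, 21 pairs were positively and 2 negatively correlated, and FASN was joined to SCD (r = 0.62 in place of 0.22), FADS1 (0.75 in place of 0.44) and ELOVL6 (0.63 in place of -0.13). Without r1-r4, and with each group centered on its own mean, 10 pairs were positively and 1 negatively correlated, the latter ACACB with ELOVL5 (r = -0.68, adjusted p = 0.0164 and r = -0.55, adjusted p = 0.0419, permutation test), for which r over all 21 tumors was -0.52 (adjusted p = 0.065). With the GC trend removed the negative pairs were those of ACACB with FADS1 (r = -0.50) and with FADS2 (r = -0.49).

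**Figure D5:**
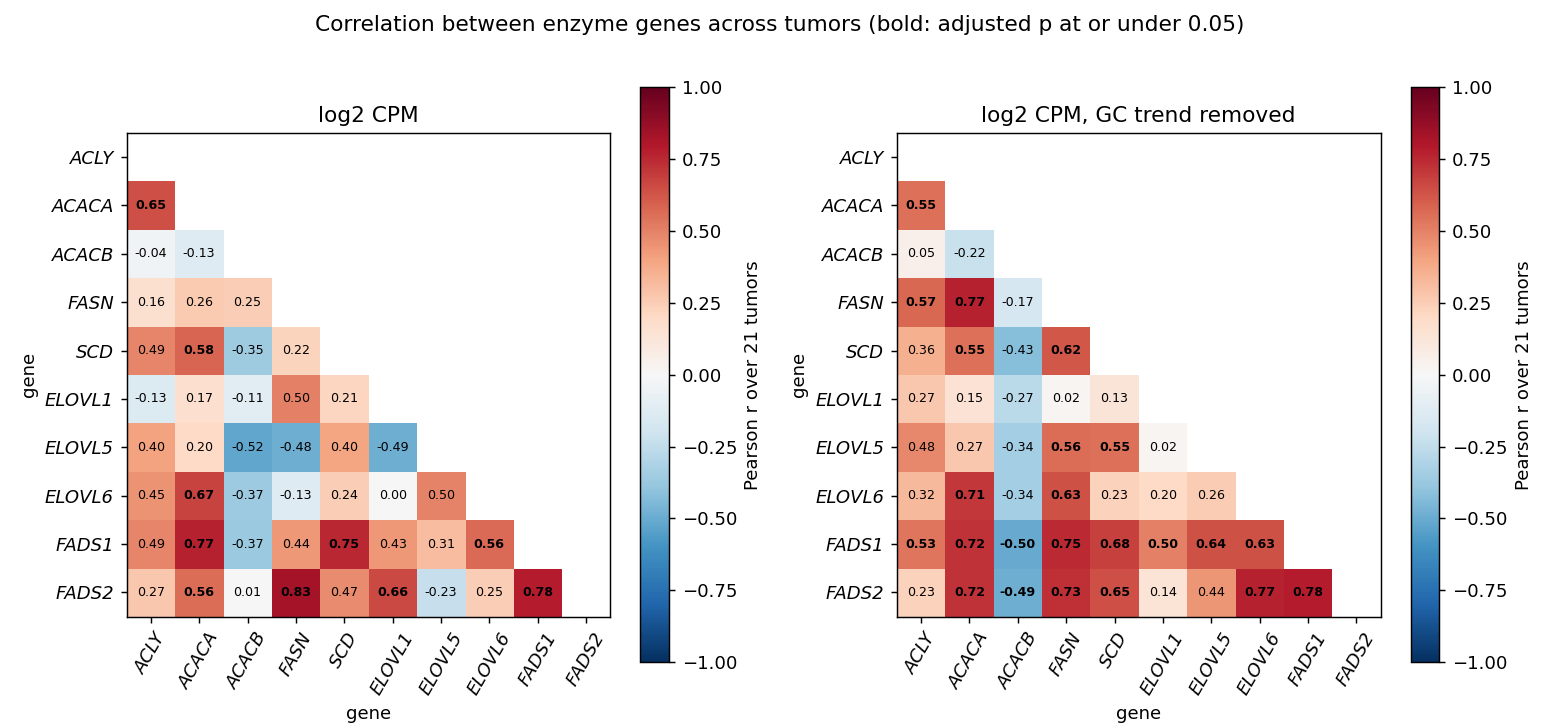
Pearson correlation between each pair of enzyme genes over the 21 tumors in log2 CPM (left) and with the GC trend of each library removed (right), where bold marks an adjusted p at or under 0.05. The bold pairs number 10 on the left and 23 on the right, and ACACB is in no positive pair marked in bold on either side.

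Among genes whose mean log2 CPM was 1 or more, those most like FASN over the 21 tumors were HNRNPA0 (r = 0.97), CLUH (0.96), HCFC1 (0.96), FAM83H (0.96) and SREBF2 (0.96). For SCD they were INSIG1 (r = 0.80), which holds SREBP back in the endoplasmic reticulum and is itself a sterol-regulated gene, NOLC1 (0.79), SCFD2 (0.77), PRPF4 (0.76) and FADS1 (0.75). With the GC trend removed, CLUH and FAM83H were still among the 5 most like FASN (r = 0.87 and 0.85) while SREBF2 was not, and INSIG1 stayed among the 5 most like SCD (r = 0.78).

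Genes around the pathway were counted by lists. In the comparisons of all 7 Oxy186-treated samples, all 7 Oxy210-treated samples and the compounds with each other, 0 genes of any list passed. Of 17 tested regulators of lipogenesis, 5 had an unadjusted p under 0.05 and were lower in Oxy210-treated samples, where 8.12% of all genes did so in that direction, and 0 had one in Oxy186-treated samples. In Oxy210-treated samples 2 of 6 genes of mitochondrial fatty acid synthesis and 2 of 10 of acyl-CoA use were lower at that threshold. So were 1 of 6 precursor suppliers, 1 of 11 other elongation and desaturation genes, 1 of 6 LXR targets, 0 of 8 oxidation and 0 of 11 cholesterol synthesis genes. SREBF1, which encodes the SREBP most tied to fatty acid synthesis, had median log2 CPM of 7.47, 6.49 and 7.00 in control, Oxy186-treated and Oxy210-treated samples, with log2 fold changes of -0.53 ± 0.33 (SE) and -0.49 ± 0.16, which were -0.29 and -0.25 with GC offsets. INSIG1 had 5.54, 5.51 and 5.09, with log2 fold changes of 0.086 ± 0.20 and -0.45 ± 0.14. The LXR gene NR1H2 and MLX, a partner of carbohydrate-response factors, were at -0.51 and -0.22 in Oxy186-treated and -0.36 and -0.092 in Oxy210-treated samples. GC offsets brought them to -0.29 and -0.11 in Oxy186-treated and -0.18 and -0.023 in Oxy210-treated samples.

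Of the precursor suppliers, the mitochondrial citrate carrier SLC25A1 and pyruvate carboxylase (PC) had log2 fold changes of -0.44 and -0.38 with Oxy186 and -0.52 and -0.40 with Oxy210, and malic enzyme ME1 had 0.33 and 0.12. With GC offsets SLC25A1 turned to 0.29 with Oxy186 and came to -0.17 with Oxy210. PC came to -0.14 and -0.20, and ME1 to 0.21 and 0.013. Of the other elongation and desaturation genes, ELOVL2, HACD2, HACD3 and FADS3 had 0.52, 0.079, 0.35 and -0.46 with Oxy186 and 0.31, 0.34, 0.17 and -0.38 with Oxy210. GC offsets gave 0.40, 0.0035, 0.28 and -0.29 with Oxy186 and 0.20, 0.26, 0.11 and -0.21 with Oxy210. Of the genes that use acyl-CoA for storage lipid, DGAT1 and AGPAT2 had -0.62 and -0.61 with Oxy186 and -0.57 and -0.80 with Oxy210. With GC offsets AGPAT2 turned to 0.061 with Oxy186 and came to -0.43 with Oxy210, and DGAT1 came to -0.23 and -0.29. CBR4, NDUFAB1 and HSD17B8 of mitochondrial fatty acid synthesis, and ACADM, HADHB and ACADVL of fatty acid oxidation, had log2 fold changes between -0.36 and 0.20, of which ACADVL and HSD17B8 turned to 0.22 and 0.022 with Oxy186, and CBR4, HADHB and ACADVL to -0.0081, -0.0027 and 0.025 with Oxy210, when GC offsets were used. MVD and DHCR7 of cholesterol synthesis had -0.44 and -0.26 with Oxy186 and -0.36 and -0.42 with Oxy210, and the LXR target MYLIP had 0.49 and 0.42. MVD came to -0.16 and -0.13 with GC offsets, DHCR7 to -0.12 and -0.33, and MYLIP to 0.46 and 0.39, each for Oxy186 and Oxy210. CYP51A1, also of cholesterol synthesis, had a fitted 0.21 ± 0.67 (SE) with Oxy186 although its mean log2 CPM was lower there, -0.35 beside 0.42 in control, with single samples from -2.30 to 2.38. With Oxy210 it had 0.56 ± 0.28.

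In Oxy186-treated samples r1-r4 against control, where 19.7% of all genes were called and 15% were called lower, 6 of 17 regulators were lower and 0 higher. They were SREBF1 (-1.36), NR1H2 (-1.16), STK11 (-1.19), SCAP (-0.74), SREBF2 (-0.71) and MLXIP (-0.53, all log2 fold changes, edgeR adjusted p from 0.00143 to 0.0379). With GC offsets, where 4.05% of all genes were called, 1 stayed lower, NR1H2 (-0.48, adjusted p = 0.0408), and NR1H3, the other LXR gene, was higher (0.60, adjusted p = 0.0294).

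The counts in the other lists stand beside the same 19.7% of all genes called. Of 6 precursor suppliers ME1 was higher (0.67) and SLC25A1 and PC were lower (-0.98 and -0.84). Of 11 other elongation and desaturation genes ELOVL2 (0.84), HACD3 (0.61) and HSD17B12 (0.38) were higher, and FADS3 (-1.18) and TECR (-0.76) were lower. CBR4 was higher (0.42) among 6 genes of mitochondrial synthesis, and HADHB (0.36) among 8 of oxidation. Of 10 genes of acyl-CoA use ACSL3 was higher (0.48) and DGAT1 and AGPAT2 were lower (-1.33 and -1.12), and of 6 LXR targets MYLIP was higher (0.63) and SREBF1, counted above, lower. Of 11 cholesterol synthesis genes 3 were lower, MVD (-1.41), LSS (-0.79) and CYP51A1 (-2.86), where 15% of all genes were called lower.

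With GC offsets 4 genes of these other lists, apart from NR1H3, were called beside 4.05% of all genes. HACD3 stayed higher (0.46) and FADS3, which sits next to FADS2 in the genome and resembles it, stayed lower (-0.59, adjusted p = 0.0235). SLC25A1 turned from -0.98 to 0.58, called both ways. CYP51A1 was lower with them too (-3.09, adjusted p = 0.00231), at a low level with a control median of 0.33 log2 CPM.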

How the data were processed

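RNA-seq of 21 A549-Luc2 xenografts was analysed. Per the labels and the study's methods, the authors trimmed reads with Trimmomatic 0.39, aligned them with STAR 2.7.6a to a combined GRCh38.p13 (GENCODE 37) and GRCm39 genome and counted uniquely mapped reads of human genes with featureCounts (Subread 2.0.1). The deposited raw counts cover 60651 genes, and the strand setting is not given in the sources used here. The authors also deposited log2 CPM values after filterByExpr and TMM for control and Oxy186-treated samples r1-r4, and log2 CPM recomputed here (prior count 2) differed from them by at most 4.97e-14.

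Raw counts were tested in R 4.3.3 with edgeR 4.0.16 (filterByExpr, TMM, quasi-likelihood test, Benjamini-Hochberg over all genes tested), with a call at an adjusted p of 0.05 and 95% intervals from the fitted SE. Log2 CPM levels used all 21 libraries. Exon GC content, lengths and positions came from GENCODE 44 (GRCh38), which gave a GC content to 99.8% of the genes tested. The GC trend of a library was fitted as a spline (4 degrees of freedom) to genes whose mean log2 CPM was 1 or more. Correlations used 100000 permutations (numpy 2.4.6, scipy 1.17.1). Alternatives were limma voom (limma 3.58.1, as in the study), DESeq2 1.42.0, RLE, library size alone, no filter, 10 counts in every library, all 21 libraries in 1 fit, GC offsets, a replicate block, a fold change over 2 and leaving out libraries. Figures used matplotlib 3.10.9.

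The members and gene lists were chosen with earlier results of these data known. The text names all 10 members, from each list the 2 genes with the smallest p in each comparison of a full group with control, the 5 genes most like FASN and SCD, and, chosen after their values were seen, the genes of the lists called in r1-r4. Markers of fibroblasts, endothelium and leukocytes were also listed, with medians of the summed level of 131.9 to 142.5, 2.61 to 2.80 and 7.97 to 12.97 CPM in the groups, and 0 of their genes passed in any comparison. Depth ranged from 13787493 to 17865119 counts, and p-values measure the spread between these tumors. RT-qPCR and tumor growth were not analysed here.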

Additional observations from a re-analysis of the deposited data

Results flagged for a closer look

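In the control group, replicate 2 stood apart in FADS2, with 7.09 log2 CPM beside 7.84 to 8.41 in the other control tumors, a gap larger than a test for a single outlying sample allows at the 95% level. Of the 40 sets of tumors examined, 10 genes over the full groups and r1-r4 of the Oxy186 group, 1 had such a sample and chance gives about 2.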

How the results depend on the processing

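The members passing the test numbered 0 in Oxy186-treated samples, 0 in Oxy210-treated samples and 0 between the compounds under every alternative run. Genes passing rose from 0 in Oxy210-treated samples to 92 with DESeq2, 11 without a filter and 2 with the replicate block, and between the compounds to 7 with DESeq2 and 1 each without a filter, with either kind of GC offsets, with the replicate block and GC offsets, and with all 21 libraries in 1 fit. In r1-r4 against control the 3323 genes went to 1406 at a fold change over 2, 683 with GC offsets, 842 with GC offsets that keep the mean of each library (chosen after seeing the data), 68 with the replicate block and GC offsets, and 1835 to 3149 without 1 of the 4 libraries (1875 without r3 and 1835 without r4). The 1 member called there became 0 with either kind of GC offsets, with the replicate block (FASN log2 fold change -0.998, edgeR adjusted p = 0.0619) and with block and GC offsets, and 0 to 2 without 1 library. Tumors with the same number in 2 groups did not vary together (r from -0.40 to 0.33, over 0.1 in 0, 3 and 1 of 7 pairs), so the numbers are not taken to pair the tumors, and the block changed no other call on a member. The cause of these changes was not tested.

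Directions of members that were not called turned as follows, in log2 fold change. For Oxy186, GC offsets gave FASN 0.13, ELOVL1 0.23, ELOVL5 -0.015 and FADS2 0.060, GC offsets keeping the mean gave FASN 0.064, ELOVL1 0.15 and ELOVL5 -0.091, and the replicate block with GC offsets gave FASN 0.13, ELOVL1 0.20, ELOVL5 -0.016 and FADS2 0.034. Leaving out 1 library gave ELOVL1 from -0.11 (without r7) to 0.0055 (without r4) and FADS2 from -0.33 (without r7) to 0.0068 (without r5). For Oxy210, library size alone gave FADS1 0.0015, GC offsets gave ELOVL5 -0.030 and FADS1 0.0044, GC offsets keeping the mean gave ELOVL5 -0.044, the replicate block with GC offsets gave FASN 0.020, ELOVL5 -0.029 and FADS1 0.015, and 1 fit of all libraries gave ACACB -0.00079. Leaving out 1 library gave ACACB from -0.030 (without r1) to 0.034 (without r5) and FADS1 from -0.097 (without r2) to 0.019 (without r4). Between the compounds, limma voom gave FASN -0.17 and ELOVL6 -0.015, library size alone gave ACLY -0.016, FASN -0.033, ELOVL5 -0.0076 and ELOVL6 -0.045, and the minimum of 10 counts gave ELOVL6 -0.012. GC offsets gave ELOVL6 -0.025, GC offsets keeping the mean gave ACLY -0.0035, ELOVL5 -0.019 and ELOVL6 -0.062, and the replicate block gave FASN -0.17 and ELOVL6 -0.013, or -0.022 for ELOVL6 with GC offsets. In r1-r4, library size alone gave ACACB 0.00029, GC offsets gave ACACB 0.089, FASN 0.17 and ELOVL1 0.43, GC offsets keeping the mean gave FASN 0.061, SCD -0.043, ELOVL1 0.32, ELOVL5 -0.070 and ELOVL6 -0.018, and the replicate block with GC offsets gave ACACB 0.10, FASN 0.46, ELOVL1 0.47 and FADS2 0.16. Leaving out 1 library there gave ACACB from -0.097 (without r4) to 0.048 (without r2), with 0.012 without r3. All other member values kept direction and call, 167 of 180 for Oxy186, 170 of 180 for Oxy210, 96 of 110 between the compounds and 132 of 150 in r1-r4.

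By total exon length the control RPKM was 21.5 for FADS1, 23.0 for FADS2, 27.9 for ELOVL1, 29.6 for ELOVL5, 8.89 for ACACA and 2.50 for ACACB. Pairs of members past the threshold in either direction numbered 11 without r1-r4, 11 with each group centered on its own mean and 23 with the GC trend removed.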
